A study of Mus musculus with 9 samples.

Results

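Expression of 8 transcription factors of the mesenchymal state was examined, namely the TWIST factors *Twist1* and *Twist2*, the SNAI factors *Snai1* and *Snai2*, the ZEB factors *Zeb1* and *Zeb2*, and the PRRX factors *Prrx1* and *Prrx2*. They were chosen by gene name, with earlier results of these data known, and all 8 were found among the 26858 genes of the table of read counts. RNA-seq had been performed on nephron progenitor cells sorted from mouse kidneys at E18.5, late in gestation, with 1 library for each of 4 control and 5 mutant samples. The study asked how loss of QPC, a subunit of mitochondrial complex III encoded by *Uqcrq*, affects these cells. Control cells came from heterozygous Six2-Qpc +/- kidneys and mutant cells from Six2-Qpc -/- (knockout) kidneys. Both groups carried the *Six2-eGFP/cre* transgene, whose product is a fusion of Cre recombinase with eGFP, and both carried a floxed *Qpc* allele, so that no group without Cre or with 2 intact alleles was sequenced. The transgene is driven by *Six2*, so that recombination is directed to nephron progenitors and their descendants, and the sort kept cells by their eGFP signal. Libraries are named by genotype and by the number in their label, 71, 72, 73 and 76 for control and 74, 75, 77, 78 and 79 for mutant.

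These factors are best known for epithelial-to-mesenchymal transition (EMT), in which cells lose their junctions and polarity and become motile. TWIST proteins are basic helix-loop-helix (bHLH) factors that pair with E proteins on E-box sequences, SNAI and ZEB proteins are zinc finger repressors of epithelial genes such as *Cdh1*, and PRRX proteins are paired-type homeodomain factors of embryonic mesenchyme. In the developing kidney the opposite step takes place, because cap mesenchyme progenitors undergo mesenchymal-to-epithelial transition (MET) when they form the renal vesicle.

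Library totals ranged from 21040536 to 23986458 counted reads, and values are given as counts per 1000000 counts of the TMM-normalized library size (CPM). *Uqcrq*, the targeted gene, was measured at 94.1 ± 13.3 CPM in control (SD, n = 4) and 21.3 ± 4.45 CPM in mutant cells (SD, n = 5), and every mutant library lay below every control library. Its log2 fold change was -2.14 with an SE of 0.16 (edgeR adjusted p = 2.09e-05), and between 386 and 637 reads remained in each mutant library. The 12 nephron progenitor markers, *Six2* and *Cited1* among them, summed to 2430–2926 CPM in control and 2439–2869 CPM in mutant libraries. By edgeR 0 of 12 passed the test, beside 14.8% of all genes tested.

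Of the 8 factors, 7 had enough reads for the edgeR test and 3 passed an adjusted p of 0.05. *Twist1* was higher in mutant cells, *Prrx1* and *Prrx2* were lower, and *Snai1*, *Snai2*, *Zeb1* and *Zeb2* did not pass. *Twist2* was too low for the test. Among all 14990 genes tested, 14.8% passed, 7.82% in the higher and 7.02% in the lower direction. The genotypes did not overlap for 3 of the 7 tested factors, the same that passed, compared with 15.2% of all genes tested (7.5% higher and 7.73% lower in mutant cells). The median log2 fold change of the 7 was 0.16, beside -0.01 over all genes tested.

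**Figure D1:**
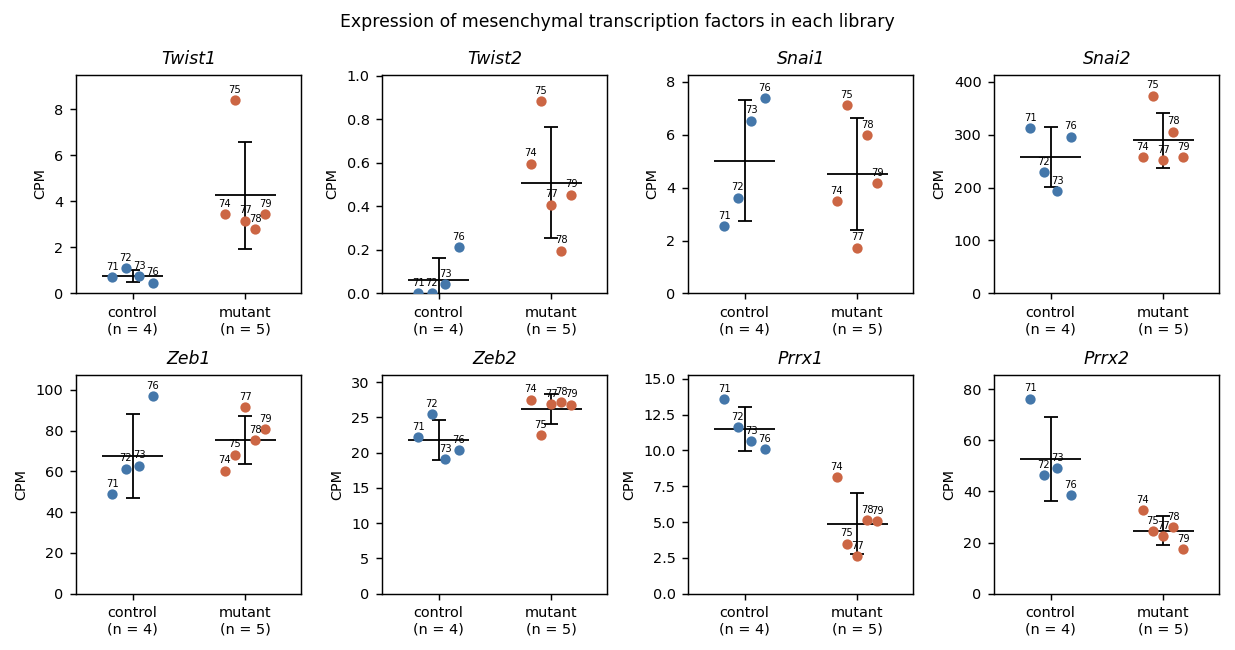
Expression of the 8 factors in every library. The vertical axes show CPM, each point is 1 library marked with its number, and black bars give the mean ± SD of 4 control and 5 mutant libraries. The mutant points lie above all control points for Twist1 and below them for Prrx1 and Prrx2, whereas the groups overlap for the other 5 genes.

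*Twist1* (ENSMUSG00000035799, chr12:33957671-33959817, plus strand, GRCm38) encodes a bHLH factor that drives EMT and holds mesenchymal precursors undifferentiated. It had 17, 28, 18 and 11 reads in control 71, 72, 73 and 76, and 81, 190, 62, 57 and 76 reads in mutant 74, 75, 77, 78 and 79. These counts correspond to 0.724, 1.09, 0.759 and 0.464 CPM in control and 3.45, 8.41, 3.16, 2.80 and 3.45 CPM in mutant cells. All 5 mutant libraries were above all 4 control libraries, and mutant 75 stood well above the other 4. The mean was 0.759 ± 0.257 CPM in control (SD, n = 4) and 4.26 ± 2.34 CPM in mutant cells (SD, n = 5), a 5.60-fold difference. *Twist1* rose by a log2 fold change of 2.48 with an SE of 0.41 (edgeR adjusted p = 0.00291). A 2-sided exact permutation test of its CPM gave p = 0.00794, the smallest value that 4 against 5 libraries allow. Without mutant 75 the log2 fold change was 2.07, and *Twist1* passed the test with each library left out in turn. Per length, its mean level in control cells was above that of 11.6% of all genes tested, and in mutant cells above that of 35.4%.

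The 250 bases before the *Twist1* start are shown because *Twist1* had the largest change of the 7 tested factors, and the same window of *Snai1* because, among the factors with an entry, it alone held an E-box. RefSeq promoters (GRCm38.p6) were found for 6 of the 8 factors, and *Snai2* and *Zeb1* had no entry. Capitals mark TATAA in *Twist1* (chr12:33957421-33957670, plus strand) and the E-box CANNTG in *Snai1* (chr2:167537945-167538194, plus strand), each written 5′ to 3′.

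Twist1: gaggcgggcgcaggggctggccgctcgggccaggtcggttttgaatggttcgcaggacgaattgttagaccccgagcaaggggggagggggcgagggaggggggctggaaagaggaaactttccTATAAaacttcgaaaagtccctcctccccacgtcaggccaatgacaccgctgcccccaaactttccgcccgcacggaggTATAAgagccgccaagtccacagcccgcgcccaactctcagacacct

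Snai1: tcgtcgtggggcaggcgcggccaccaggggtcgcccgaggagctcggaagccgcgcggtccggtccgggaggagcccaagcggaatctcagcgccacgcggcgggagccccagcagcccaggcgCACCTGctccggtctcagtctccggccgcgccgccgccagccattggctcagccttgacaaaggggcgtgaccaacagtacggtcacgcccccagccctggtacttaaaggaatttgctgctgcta

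TATAA, read on the written strand, occurred at both marked places, the nearer beginning 47 bases before the *Twist1* start, and 16% of 32851 RefSeq promoter windows of this length held it. Among the other factors with an entry, TATAA was found only in *Zeb2* windows, beginning 218 or 244 bases before the start of the entry. CANNTG, which reads as the same pattern on both strands, occurred in 66.2% of all windows. It was found once in the *Snai1* window, at the marked place, and not in the windows of *Twist1*, *Twist2*, *Prrx1* and *Prrx2* or in the 4 *Zeb2* entries. The *Snai1* E-box has the form CACCTG, the reverse complement of CAGGTG, and 17.2% of all windows held either form. These matches describe letters in the windows and do not show binding.

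*Twist2* (ENSMUSG00000007805, chr1:91801461-91848028, plus strand) encodes the close paralog of TWIST1, a bHLH repressor of dermal and other mesenchyme. It had 0, 0, 1 and 5 reads in control 71, 72, 73 and 76, and 14, 20, 8, 4 and 10 reads in mutant 74, 75, 77, 78 and 79. Counts of 3 reads or fewer were taken as the floor, so that control 76 was the only control library above it, and mutant 78 lay below control 76. The mean was 0.0633 ± 0.10 CPM in control (SD, n = 4) and 0.508 ± 0.255 CPM in mutant cells (SD, n = 5). The low-count filter of edgeR left *Twist2* out, and a 2-sided exact permutation test of its CPM gave p = 0.0238. With 1 library left out the exact permutation p rose above 0.05 in 7 of 9 cases, with a highest value of 0.0714, and the difference of 0.445 CPM ranged from 0.35 to 0.52. Without the filter, edgeR gave a log2 fold change of 2.92 (adjusted p = 0.0589) and DESeq2 one of 3.03 (adjusted p = 0.0208). With 1 control library left out, the filter asked for fewer libraries, and *Twist2* passed it through the mutant libraries alone. In these fits edgeR gave adjusted p of 0.0963 to 0.113 without control 71, 72 or 73. Without control 76, which held 5 of the 6 control reads, it gave a log2 fold change of 4.75 and an adjusted p of 0.0118. The libraries did not keep the strand, and 1477 exonic bases of *Twist2* overlap the antisense gene *Gm29100*, whose reads cannot be told apart from those of *Twist2*.

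Reads shared between paralogs could move counts from one gene to the other, so the annotated transcripts (GENCODE M21) of each pair were compared. No pair shared an identical run of 50 bases, and outside the ZEB pair, whose longest shared run of 35 bases was a dinucleotide repeat, the longest runs were as follows, in capitals throughout because every base is shared.

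Twist1 and Twist2: CTGCGCAAGATCATCCCCACGCT

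Snai1 and Snai2: CATGCCGCGCTCCTTCCTGGTCA

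Prrx1 and Prrx2: TCAACATGGCCAACAGCAT

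These runs had 23, 23 and 19 bases, respectively. Near matches were not compared, and whether reads of a factor were counted for its paralog was not tested.

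*Snai1* (ENSMUSG00000042821, chr2:167538195-167542814, plus strand) encodes a zinc finger repressor of *Cdh1* that starts EMT in many tissues. It had 60, 93, 155 and 175 reads in control 71, 72, 73 and 76, and 82, 161, 34, 122 and 92 reads in mutant 74, 75, 77, 78 and 79. As CPM the values were 2.56, 3.62, 6.53 and 7.38 in control and 3.49, 7.13, 1.73, 6.0 and 4.17 in mutant cells. The groups overlapped over most of their range, with the lowest value in mutant 77 and the highest in control 76. The mean was 5.02 ± 2.30 CPM in control (SD, n = 4) and 4.51 ± 2.12 CPM in mutant cells (SD, n = 5), with a log2 fold change of -0.15, an SE of 0.40 and an edgeR adjusted p of 0.827. The sign of this difference depended on single libraries, since it was 0.10 without control 76 and 0.05 without mutant 77.

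*Snai2* (ENSMUSG00000022676, chr16:14705852-14709395, plus strand) encodes SLUG, a repressor of epithelial junction genes in neural crest and other migratory cells, and had the highest level of the 8 factors in both genotypes. It was measured at 312, 229, 193 and 296 CPM in control 71, 72, 73 and 76, and at 258, 374, 252, 306 and 258 CPM in mutant 74, 75, 77, 78 and 79. Mutant 75 was the highest library and control 73 the lowest, and the remaining libraries of both groups were interleaved. The mean was 258 ± 55.9 CPM in control (SD, n = 4) and 289 ± 52.2 CPM in mutant cells (SD, n = 5), and the log2 fold change of 0.17 with an SE of 0.16 did not pass the test (edgeR adjusted p = 0.523). Counting error is small at 4591 to 8450 reads per library, so the spread between libraries set this precision.

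*Zeb1* (ENSMUSG00000024238, chromosome 18) encodes a zinc finger and homeodomain repressor that is held low in epithelia by the miR-200 family. Its values were 48.9, 61.4, 62.9 and 96.9 CPM in control 71, 72, 73 and 76, and 60.4, 68.2, 91.5, 75.5 and 80.7 CPM in mutant 74, 75, 77, 78 and 79. Both the lowest and the highest library were controls, so that the mutant range lay inside that of the control. The mean was 67.5 ± 20.6 CPM in control (SD, n = 4) and 75.2 ± 11.8 CPM in mutant cells (SD, n = 5), with a log2 fold change of 0.16, an SE of 0.18 and an edgeR adjusted p of 0.600. The sign turned with 1 surrogate variable in the fit, to -0.01.

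*Zeb2* (ENSMUSG00000026872, chr2:44983634-45117395, minus strand) encodes the SMAD-binding relative of ZEB1. It was measured at 22.2, 25.5, 19.0 and 20.4 CPM in control 71, 72, 73 and 76, and at 27.5, 22.5, 26.9, 27.2 and 26.8 CPM in mutant 74, 75, 77, 78 and 79. Apart from mutant 75, which lay among the controls, the mutant libraries lay close together and above every control library. The mean was 21.8 ± 2.79 CPM in control (SD, n = 4) and 26.2 ± 2.09 CPM in mutant cells (SD, n = 5). The log2 fold change of 0.26 with an SE of 0.14 did not pass the test across all genes (edgeR adjusted p = 0.211), and a 2-sided exact permutation test of its CPM alone gave p = 0.0476. *Zeb2* is also expressed in macrophages. The summed macrophage markers were 0.548–16.8 CPM in control libraries. Among mutant libraries they were lowest in 74, at 10.1 CPM, where *Zeb2* was at 27.5 CPM. They were highest in mutant 77, at 175 CPM, where *Zeb2* was at 26.9 CPM. The part of macrophage RNA in the level of *Zeb2* was not tested.

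*Prrx1* (ENSMUSG00000026586, chr1:163245119-163313710, minus strand) encodes a homeodomain factor of limb, craniofacial and other embryonic mesenchyme. It had 319, 298, 252 and 239 reads in control 71, 72, 73 and 76, and 191, 79, 51, 104 and 112 reads in mutant 74, 75, 77, 78 and 79. As CPM the values were 13.6, 11.6, 10.6 and 10.1 in control and 8.14, 3.50, 2.60, 5.12 and 5.08 in mutant cells. All mutant libraries were below all control libraries, with mutant 74 nearest to them and mutant 77 farthest away. The mean was 11.5 ± 1.54 CPM in control (SD, n = 4) and 4.89 ± 2.11 CPM in mutant cells (SD, n = 5). *Prrx1* fell by 1.23 on the log2 scale with an SE of 0.28 (edgeR adjusted p = 0.0133), and it passed with each library left out, at log2 fold changes from -1.49 to -1.07.

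*Prrx2* (ENSMUSG00000039476, chr2:30834972-30881251, plus strand) encodes the paralog of PRRX1 and had the second highest level per length of the 8 factors. It had 1790, 1189, 1166 and 915 reads in control 71, 72, 73 and 76, and 767, 553, 440, 531 and 384 reads in mutant 74, 75, 77, 78 and 79. As CPM the values were 76.3, 46.3, 49.1 and 38.6 in control and 32.7, 24.5, 22.4, 26.1 and 17.4 in mutant cells. The groups did not overlap, and control 71 was set apart above the other control libraries. The mean was 52.6 ± 16.4 CPM in control (SD, n = 4) and 24.6 ± 5.57 CPM in mutant cells (SD, n = 5). *Prrx2* fell by 1.09 on the log2 scale with an SE of 0.21 (edgeR adjusted p = 0.00564), and it passed with each library left out, at log2 fold changes from -1.22 to -0.86.

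**Figure D2:**
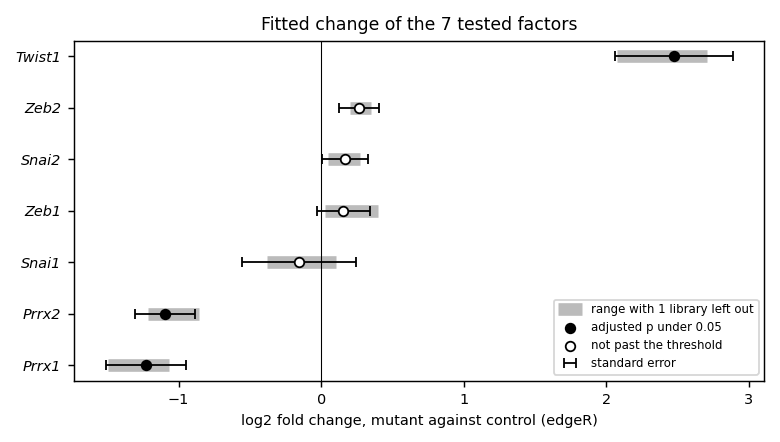
Fitted log2 fold change, mutant against control, of the 7 tested factors (horizontal axis, edgeR), with the standard error as black bars and the range over fits that leave out 1 library in gray. Filled points passed an adjusted p of 0.05. Twist1 lies at 2.48, Prrx1 at -1.23 and Prrx2 at -1.09, and the gray ranges of these 3 stay clear of 0.

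To compare genes with each other, CPM were divided by gene length in kilobases. In control cells the order of the mean levels was *Snai2* at 127, *Prrx2* at 36.5, *Zeb1* at 11.6, *Snai1* at 3.10, *Zeb2* at 2.39, *Prrx1* at 1.76, *Twist1* at 0.470 and *Twist2* at 0.0251 CPM per kb. Among neighbours in this order, the ranges over control libraries overlapped for *Snai1* and *Zeb2* alone. The level of *Snai2* in control cells was above that of 95.1% of all genes tested. In mutant cells the order was *Snai2* at 143, *Prrx2* at 17.1, *Zeb1* at 13.0, *Zeb2* at 2.87, *Snai1* at 2.78, *Twist1* at 2.63, *Prrx1* at 0.749 and *Twist2* at 0.201 CPM per kb. There the ranges overlapped between *Prrx2* and *Zeb1*, between *Zeb2* and *Snai1*, and between *Snai1* and *Twist1*. *Twist1* therefore stood below *Prrx1* in control and above it in mutant cells, with separate ranges both times.

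**Figure D3:**
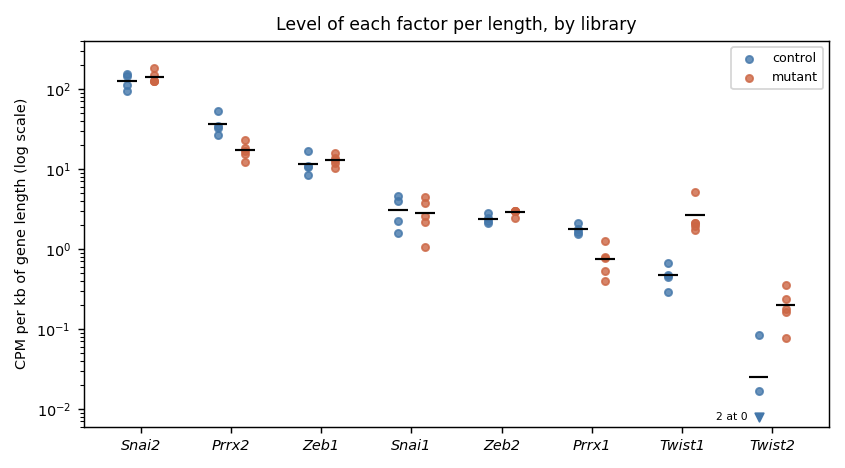
Level of each factor per length. The vertical axis, on a log scale, shows CPM per kb of gene length, each point is 1 library (4 control, 5 mutant) and black lines are group means. Triangles at the lower edge stand for libraries with 0 reads. Snai2 is the highest factor, at 127 CPM per kb in control cells, and Twist2 the lowest, with 2 control libraries at 0.

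Within a library, the ratio of paralogs does not depend on library scaling, and it is given as log2 of the ratio of counts with 0.5 added, as a description with no test. *Snai1* over *Snai2* was -5.78 ± 0.89 in control (SD, n = 4) and -6.13 ± 0.61 in mutant cells (SD, n = 5). *Prrx1* over *Prrx2* was -2.16 ± 0.25 in control and -2.40 ± 0.55 in mutant cells, which differ by less than the larger SD. *Zeb1* over *Zeb2* was 1.59 ± 0.50 in control and 1.51 ± 0.24 in mutant cells. *Twist1* over *Twist2* was 3.91 ± 2.11 in control and 3.03 ± 0.45 in mutant cells, and the control value rests on libraries with 0, 0, 1 and 5 reads of *Twist2*. Its difference of -0.89 became 0.14 when 2 was added to each count.

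As a description over 9 libraries, which fall into 2 genotypes and share their depth and amplification, the genes whose log2 CPM ran closest to each factor were listed by Pearson r among the 13281 other genes whose mean CPM was 1 or more. For *Twist1* they were *Srgap3* (r = 0.976), *Ly6h* (r = 0.975) and *Slc7a7* (r = 0.975). For *Prrx1* they were *Pgm2* (r = 0.984), *Mapk8ip1* (r = 0.980) and *Col2a1* (r = 0.980), and for *Prrx2* they were *Hoxa11os* (r = 0.967), *Mettl24* (r = 0.965) and *Jsrp1* (r = 0.964). *Zfp583* led for *Snai1* (r = 0.945), *Lpar4* for *Snai2* (r = 0.929), *Ints8* for *Zeb1* (r = 0.944) and *Erf* for *Zeb2* (r = 0.960). Among the factors themselves, *Prrx1* and *Prrx2* had r = 0.854, *Twist1* and *Prrx1* had r = -0.807, and *Twist1* and *Prrx2* had r = -0.762.

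Markers of other cell types that a sort for eGFP could carry along were summed in each library. The 16 renal stroma markers summed to 485–679 CPM in control and 903–1881 CPM in mutant libraries, with p = 0.0159 by a 2-sided exact permutation test. Of the 15 that were tested, 9 rose and 0 fell by edgeR, beside 7.82% and 7.02% of all genes tested. Fitted log2 fold changes were above 0 for 13 of them and below 0 for 2. *Pdgfra*, a receptor of stromal fibroblasts, rose by 3.66 on the log2 scale (adjusted p = 0.00623), and *Col1a1*, the main fibrillar collagen, by 1.89 (adjusted p = 0.00334). *Foxd1*, the defining factor of cortical stroma, rose by 0.58 on the log2 scale (adjusted p = 0.0121), and *Meis1* by 1.11 (adjusted p = 0.0136), and without control 73 these last 2 had adjusted p of 0.0509 and 0.0515. Mutant 75, the library with the most *Twist1*, also had the highest stroma sum, 1881 CPM, whereas the other mutant libraries reached at most 1224 CPM. Without mutant 75, *Twist1* had a log2 fold change of 2.07 and passed. *Prrx1* and *Prrx2* were lower in the mutant libraries, and the stroma sums were higher there. The part of stromal RNA in these results was not tested, and in sorted bulk cells a different share of a cell type and a different amount of RNA per cell cannot be told apart.

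The 12 macrophage markers summed to 0.548–16.8 CPM in control and 10.1–175 CPM in mutant libraries (p = 0.0317, exact permutation test). By edgeR, 4 of 11 tested rose and 0 fell, beside 7.82% and 7.02% of all genes tested. *Fcgr1* (log2 fold change 3.93) and *Tyrobp* (log2 fold change 3.68) led them. *Fcgr1* had 0 to 7 reads in control and 9 to 60 in mutant libraries, so it passed the low-count filter through the mutant libraries alone. *Tyrobp* did not pass without control 72 or without mutant 78, and its control libraries had as few as 1 read. Of the other 2 that rose, *Mrc1* passed in 2 of 9 fits with 1 library left out and *Aif1* in 1 of 9. Control libraries had 1 to 37 reads of *Tyrobp*, 0 to 27 of *Mrc1* and 0 to 18 of *Aif1*. These genes met the low-count filter through the mutant libraries as well, so that none of them could easily have been called lower. The 10 endothelial markers summed to 17.3–26.4 CPM in control and 8.76–16.5 CPM in mutant libraries (p = 0.00794, exact permutation test). Of 7 tested by edgeR, *Pecam1* was higher and *Plvap* lower, beside 7.82% and 7.02% of all genes tested. *Pecam1* did not pass without control 71, 72, 73 or 76. With 0 to 9 reads in control libraries, *Pecam1* also passed the low-count filter through the mutant libraries alone. *Plvap* made up most of the endothelial sum in control libraries, at 13.7–21.1 CPM, but not in mutant libraries, at 2.27–7.14 CPM. Without *Plvap*, a choice made after the values were seen, the other 9 summed to 3.54–6.62 CPM in control and 5.84–11.5 CPM in mutant libraries (p = 0.0556, exact permutation test). The 7 ureteric bud markers summed to 44.9–63.4 CPM in control and 27.3–49.4 CPM in mutant libraries (p = 0.0317, exact permutation test). By edgeR 0 of 3 tested passed, beside 14.8% of all genes tested. Nearly all of it came from *Hoxb7* and *Wnt11*, and without them, again chosen after the values were seen, the other 5 summed to 0.169–1.60 CPM in control and 0.639–11.3 CPM in mutant libraries (p = 0.349, exact permutation test). The 6 erythroid markers summed to at most 2.66 CPM. None of these 6 marker lists, the progenitor list included, had a member at 0 in all libraries, and the part of these cell types in the levels of the 8 factors was not tested.

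**Figure D4:**
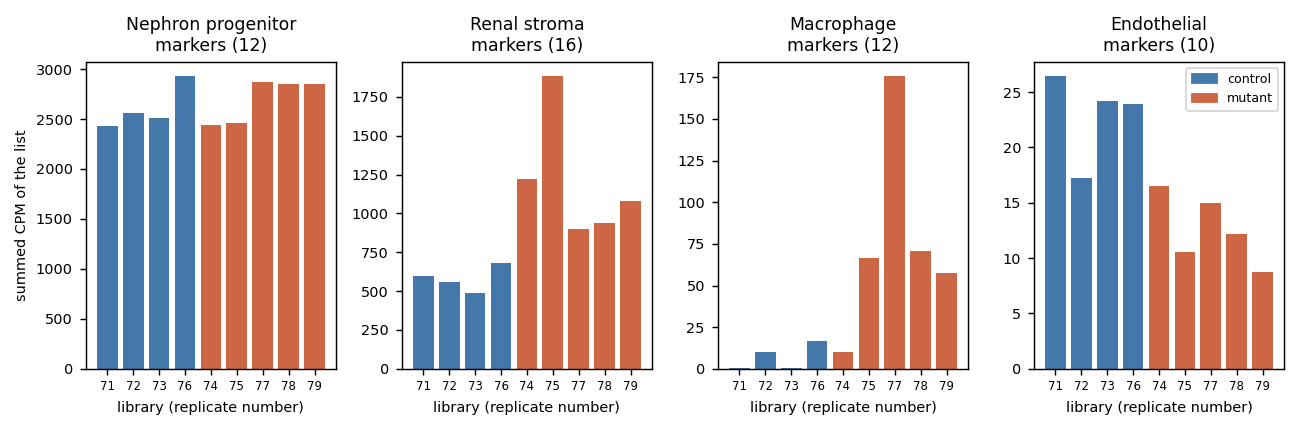
Summed CPM of nephron progenitor, renal stroma, macrophage and endothelial markers in each library (bars from 0, blue for control and orange for mutant, numbers as in the labels). The progenitor sums overlap between genotypes, the 5 mutant stroma sums of 903–1881 CPM exceed the control sums, and the macrophage sum peaks in mutant 77 at 175 CPM.

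Genes around the 8 factors were then examined by role. E proteins are the partners with which TWIST factors bind DNA, and ID proteins sequester them. Of 7 tested, 1 rose and 0 fell, a share near the 14.8% of all genes that passed in either direction, and the median log2 fold change was -0.12. *Tcf12*, which encodes the E protein HEB, was at 87.8 ± 13.1 CPM in control (SD, n = 4) and 126.3 ± 12.3 CPM in mutant cells (SD, n = 5), and rose by 0.52 on the log2 scale (edgeR adjusted p = 0.0156). *Tcf3*, *Id1* and *Id4* had log2 fold changes of -0.24, -0.25 and -0.64 and did not pass. Without control 73 the count was 0, with an adjusted p of 0.0566 for *Tcf12*.

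Of 13 relatives of the factors, 11 were measured and 5 were tested. Among those tested, 1 rose and 1 fell, beside 7.82% and 7.02% of all genes tested. *Tcf21*, a bHLH factor of kidney mesenchyme that is also on the stroma list, was at 86.9 ± 23.2 CPM in control (SD, n = 4) and 151 ± 32.3 CPM in mutant cells (SD, n = 5), and rose by 0.79 on the log2 scale (edgeR adjusted p = 0.0155). *Msc*, which encodes the bHLH repressor musculin, fell by 0.94 on the log2 scale (edgeR adjusted p = 0.0409). *Alx1*, a paired-type homeodomain gene like *Prrx1*, had 0 to 18 reads in control and 13 to 50 in mutant libraries, and its log2 fold change of 2.29 did not pass (edgeR adjusted p = 0.0628). The count of 2 became 0 without control 71 or control 73, and 1 without control 72 or without mutant 75, 77, 78 or 79.

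Corepressors such as CtBP and LSD1 act with SNAI and ZEB proteins, and F-box proteins mark them for degradation. Of 12 tested, 1 rose and 0 fell, beside 14.8% of all genes that passed in either direction, and the median log2 fold change was 0.12, so the count is not above the background. *Fbxo11*, whose product targets SNAI proteins for turnover, was at 53.9 ± 7.10 CPM in control (SD, n = 4) and 73.7 ± 7.49 CPM in mutant cells (SD, n = 5), and rose by 0.45 on the log2 scale (edgeR adjusted p = 0.0297). *Lmo4*, *Hdac2* and *Rcor1* had log2 fold changes of 0.34, 0.27 and 0.24 and did not pass. The count of 1 became 0 without control 71, 72 or 73 or without mutant 75, 78 or 79, and 2 without mutant 74.

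TGF-beta signaling through SMAD proteins is a main inducer of SNAI, ZEB and TWIST factors. Of 12 ligands, receptors and SMAD genes tested, 3 rose and 0 fell, beside 7.82% and 7.02% of all genes tested. The median log2 fold change was 0.30. *Tgfbr3*, the coreceptor betaglycan, was at 4.20 ± 0.954 CPM in control (SD, n = 4) and 12.03 ± 4.20 CPM in mutant cells (SD, n = 5), with a log2 fold change of 1.52 (edgeR adjusted p = 0.00420). *Tgfb1*, a ligand, had 12 to 29 reads in control and 32 to 78 in mutant libraries, and rose by 1.57 on the log2 scale (edgeR adjusted p = 0.0209). *Smad2*, which carries the signal to the nucleus, rose by 0.58 on the log2 scale (edgeR adjusted p = 0.0345), and *Tgfb2* had a log2 fold change of 0.31 and did not pass. The count of 3 became 1 without control 71 or 73 or without mutant 78.

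Genes that are raised during EMT moved in both directions. Of 15 tested of 16, 5 rose and 3 fell, beside 7.82% and 7.02% of all genes tested. The median log2 fold change was 0.18. *Vim*, the intermediate filament of mesenchymal cells, was at 105 ± 6.41 CPM in control (SD, n = 4) and 212 ± 42.8 CPM in mutant cells (SD, n = 5), a log2 fold change of 1.02 (edgeR adjusted p = 0.00126). *Fn1*, fibronectin, rose by 1.56 on the log2 scale (edgeR adjusted p = 0.00966), and had an adjusted p of 0.0612 without the low-count filter. *Thy1*, a surface marker of fibroblasts, had 0 to 5 reads in control and 17 to 93 in mutant libraries (edgeR adjusted p = 0.00516). It passed the low-count filter through the mutant libraries alone, so that it could hardly have been called in the other direction. In the other direction, *Sparc*, a matricellular glycoprotein, was at 2140 ± 128 CPM in control and 1373 ± 33.3 CPM in mutant cells and fell by 0.64 on the log2 scale (edgeR adjusted p = 0.00196). The other 4 that passed, named after their values were seen, were the collagen receptor *Ddr2* and the fibroblast protease *Fap*, which rose, and the N-cadherin gene *Cdh2* and the gelatinase *Mmp2*, which fell. *Fap* had 0 to 12 reads in control and 6 to 116 in mutant libraries. It met the low-count filter through the mutant libraries, so that it too could hardly have been called lower. The count of 8 became 5 without control 72 or control 73.

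Of 22 epithelial genes that SNAI and ZEB proteins repress, or that oppose EMT, 15 were tested, and 0 rose and 3 fell, with a median log2 fold change of 0.02. Of all genes tested, 7.82% rose and 7.02% fell. *Ovol1*, a zinc finger factor that opposes EMT, was at 18.3 ± 3.25 CPM in control (SD, n = 4) and 10.7 ± 2.62 CPM in mutant cells (SD, n = 5), and fell by 0.77 on the log2 scale (edgeR adjusted p = 0.0248). *Krt19*, an epithelial keratin, fell by 1.51 (edgeR adjusted p = 0.0261), and *Dsp*, the desmosomal plaque protein desmoplakin, with 9 to 36 reads in control and 1 to 10 in mutant libraries, fell by 2.03 (edgeR adjusted p = 0.0451). *Llgl2*, a polarity gene, had a log2 fold change of -0.86 and did not pass. *Cdh1*, the E-cadherin gene, named after its values were seen, had 1 to 15 reads in control and 0 to 9 in mutant libraries and was too low for the test. The count of 3 became 1 without control 71, 72 or 73 or without mutant 77 or 79, and 0 with 1 surrogate variable in the fit.

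**Figure D5:**
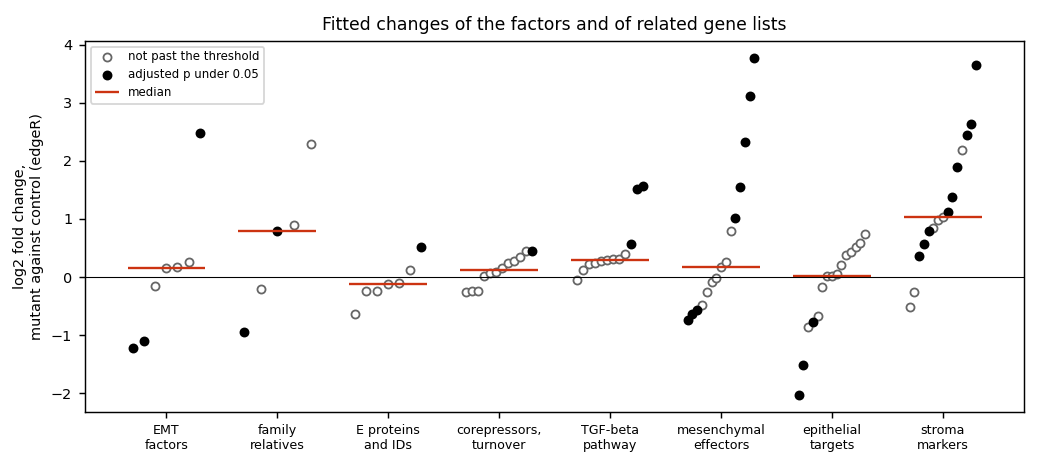
Log2 fold change, mutant against control (vertical axis, edgeR), of the tested genes of each list, with 1 point per gene, filled where the adjusted p was under 0.05, and a red line at the median. The 7 EMT factors spread from -1.23 to 2.48, and the 9 filled points of the stroma list all lie above 0.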

How the data were processed

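Poly(A)-selected, non-stranded libraries had been made from cDNA amplified from sorted cells. The authors deposited 1 table of read counts per gene and library; the submitters' processing notes name STAR, mm10 and DESeq2, and the counter is not given in the sources used here. Columns of the authors' FPKM, normalized means, log2 fold changes and p-values were not used. Gene length was taken from the deposited table.

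Counts were analyzed in R 4.3.3 with edgeR 4.0.16 (filterByExpr on genotype, minimum count 10, TMM, robust quasi-likelihood test, Benjamini-Hochberg adjustment over 14990 genes, threshold 0.05). The SE was derived as |log2 fold change|/√F. Alternatives used DESeq2 1.42.0, limma 3.58.1 (voom) and sva 3.50.0. For single values, 2-sided exact permutation tests over all splits into 4 and 5 libraries were used. Figures were made with Python 3.11.15, pandas 2.3.3 and matplotlib 3.10.9.

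The members and gene lists were chosen with earlier results of these data known. Named were all 8 factors, *Uqcrq*, up to 4 genes of each list with the lowest edgeR p, and the 3 genes most like each tested factor; genes outside this rule are marked. Gene coordinates in the table were identical to GENCODE M21 (GRCm38) for 6 of 9 genes checked, and the others differed at 1 end. *Scrt1* and *Hand2* were not matched, and a further marker list is not reported here. In simulated data on 14990 genes for this comparison, the test recovered 8 of 50 genes changed 1.5-fold, 28 of 50 changed 2-fold, 44 of 50 changed 4-fold and 44 of 50 changed 8-fold.

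Library totals were 21040536 to 23986458 reads, and TMM factors were 0.933 to 1.09. No replicate pair agreed within sampling noise (lowest chi-square per degree of freedom 14.2). The labels do not say that libraries came from separate animals or litters, so p-values measure only the spread between these samples, which may be technical. Errors are SDs between libraries.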

Additional observations from a re-analysis of the deposited data

Results flagged for a closer look

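In groups of 4 or 5 libraries, a single library stood apart from the others by a gap that exceeded Dixon's 95% critical value in 8 of 130 groups, and chance flags about 1 in 20, or 6.5. In mutant 75, *Twist1* was at 8.41 CPM (2.80–3.45 in the other mutant libraries). In the same library *Zeb2* was at 22.5 CPM (26.8–27.5 in the others). *Pdgfra* was also apart in mutant 75, at 118 CPM (19.9–48.5 in the others). In mutant 77, *Aif1* was at 8.26 CPM (0.469–2.31 in the others) and *Calb1* at 11.02 CPM (0–1.24 in the others). *Rcor1* was at 119 CPM in mutant 79 (99.9–103 in the others), and *Llgl2* at 1.92 CPM in mutant 78 (3.11–3.28 in the others). In control 71, *Tcf15* was at 0.809 CPM (0.584–0.591 in the other controls).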

How the results depend on the processing

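*Twist1*, *Prrx1* and *Prrx2* kept their direction and passed the threshold in all 19 settings, with adjusted p from 9.33e-08 to 0.0149, from 0.000359 to 0.0463 and from 3.39e-05 to 0.0210, respectively. The number of factors that passed was 3, except 4 with DESeq2 and without control 76, where *Twist2* passed as well. Without control 76, *Twist2* entered the test through the mutant libraries alone, and most of its control reads were removed. *Uqcrq* ranged from -2.34 to -2.06. The settings besides the main fit were DESeq2, RLE and upper-quartile factors, no low-count filter, a minimum of 10 counts in each library, voom with quality weights, 1 surrogate variable, a Y-linked covariate, a prior count of 2 and each of 9 libraries left out. The prior count of 2 changed only the log2 fold change and kept the adjusted p of the main fit, so no call could change there. The number of genes past the threshold, 2225, was 4858 with limma-voom, 3213 with DESeq2 and 1046–3136 with 1 library left out, the lowest without control 73. With limma-voom, 2 E protein and ID genes, 3 corepressor genes, 5 TGF-beta genes and 6 epithelial genes passed. With 1 surrogate variable, 1 relative, 2 E protein and ID genes, 2 corepressor genes and 0 epithelial genes passed. The Y-linked covariate gave 1 relative and 1 epithelial gene, no low-count filter gave 1 relative, and DESeq2 gave 2 corepressor genes. With 1 library left out, the counts were 0–3 for relatives, 0–1 for E protein and ID genes, 0–2 for corepressors, 1–4 for TGF-beta genes, 5–8 for mesenchymal effectors and 1–3 for epithelial genes. The *Twist2* difference was 0.35–0.52 CPM with 1 library left out, and its fitted log2 fold change was 3.03 with DESeq2.

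Reversed differences were those of *Snai1* (0.10 without control 76 and 0.05 without mutant 77, from -0.38 to 0.10 with 1 library left out), *Zeb1* (-0.0101 with 1 surrogate variable), *Tcf3* (0.11 with 1 surrogate variable and 0.00915 without control 72, down to -0.39 with other libraries left out), *Kdr* (-0.96 with limma-voom and -0.0789 without mutant 74, up to 1.06 with other libraries left out) and *Alas2* (0.0141 with 1 surrogate variable and 0.00878 without control 73, down to -0.35 with other libraries left out). The log2 ratio of *Twist1* to *Twist2* turned to a difference of 0.14 with 2 added to each count, and that of *Zeb1* to *Zeb2* to 0.14 without control 76 and 0.0131 without mutant 74, and was as low as -0.23 with other libraries left out. The cause of these changes was not tested. Over the named genes, 788 alternatives left the call and direction as they were, 92 lost the call, 25 gained it and 9 reversed. Scaling moved the median log2 fold change of all genes by at most -0.03. *Twist2* and *Cdh1* were limited by depth, since several libraries had 3 reads or fewer. The endothelial and ureteric bud sums without their most abundant members were added after seeing the data. No paired analysis was possible because control and mutant samples share no replicate number.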
